A study of Mus musculus with 4 samples.

Results

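The 10 genes described here are immediate early response genes, chosen by name and not by a measured value: Fos, Fosb, Jun, Junb, Atf3, Egr1, Nr4a1, Dusp1, Zfp36 and Ier2. All 10 were found in the deposited values, each through 1 probe set that names 1 gene, among 19938 genes in all. Immediate early genes are transcribed within minutes of a stimulus, without new protein synthesis, when kinase cascades activate factors already bound at their promoters, such as the serum response factor and CREB. Their products are mostly transcription factors, among them the AP-1 subunits, and proteins that end the response by inactivating kinases or by destabilising mRNA. Dissociation of a tissue into single cells is known to induce them, and since every array here held sorted cells, its part in their levels was not tested.

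The study asked how the bone marrow niche changes in myeloproliferative neoplasm (MPN), a blood cancer often driven by an activating JAK2 mutation. All mice were C57BL/6 and carried Nes-gfp, in which the nestin promoter drives green fluorescent protein. The MPN group had received bone marrow cells with Mx1-cre, a Cre recombinase under an interferon-inducible promoter, and JAK2-V617F (n = 3). The control mouse, labelled Nes-gfp alone, had received control marrow cells (n = 1). The labels give the MPN cells the genotype Nes-gfp;Mx1-cre;JAK2-V617F, although the design text places the last 2 alleles in the transplanted cells. In both groups the reporter-positive cells negative for CD45, CD31 and Ter119 were sorted 10 weeks after transplantation, and the age of the mice is not given in the sources used here. Each array is titled with a mouse and was taken as 1 mouse. The reporter marks whichever cells used the nestin promoter, and a bulk array gives 1 value for all of them.

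Expression was read on Affymetrix mouse gene arrays, and the values below are the deposited log2 levels. Levels are compared between arrays, for a gene or for the sum of a list, since probe sets differ in brightness. Which genes weigh most in such a sum depends on that brightness too. Olfactory and vomeronasal receptor genes, which marrow cells are not known to use, gave a background limit: the 95th percentile of their 1192 mean levels was 5.21. All 10 genes lay above it on every array. Elsewhere a gene is said to lie above or under the limit in a group by that group's mean. The median gene lay 0.18 higher in MPN than in the control, and at -0.08 once the arrays were shifted so that the receptor genes had equal medians. Markers of the sort were checked first. Nes itself stayed under that limit on every array, at 4.56, 3.92 and 4.26 in MPN mice 1, 2 and 3 against 4.26 in the control mouse. Of 10 endothelial markers, 5 lay under the limit by the mean of each group, but Ptprc, which encodes CD45, read 10.16, 9.46 and 10.40 in the MPN mice against 7.07 in the control. The arrays labelled as CD45-negative cells thus held CD45 transcript above the limit, with more of it on each MPN array.

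Promoter sequences from RefSeq (build GRCm38.p6) were matched by symbol for 8 of the 10 genes; Egr1 and Ier2 had no match. In the 250 bases before each start, 5 short motifs and the CArG box, the binding site of the serum response factor, were searched on both strands. The motifs were TGACGTCA, the full cAMP response element bound by CREB, TGACG, its short form, which the full one contains, TGANTCA, the AP-1 site, GCGNGGGCG, the Egr site, and TATAAA, the TATA box. The windows of 4 genes are shown. Fosb and Nr4a1 are the genes with the most negative and the most positive difference, Dusp1 holds the full cAMP response element, and Zfp36 holds the CArG box. Each is written 5′ to 3′ on the gene's strand and ends at the base before the start, with motif matches in capitals.
Fosb, chr7:19310046-19310295, strand -: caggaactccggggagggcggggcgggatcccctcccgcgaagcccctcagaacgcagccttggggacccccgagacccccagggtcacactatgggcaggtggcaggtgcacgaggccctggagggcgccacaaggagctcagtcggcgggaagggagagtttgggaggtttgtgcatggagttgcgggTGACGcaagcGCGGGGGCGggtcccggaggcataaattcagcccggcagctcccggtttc
Nr4a1, chr15:101266596-101266845, strand +: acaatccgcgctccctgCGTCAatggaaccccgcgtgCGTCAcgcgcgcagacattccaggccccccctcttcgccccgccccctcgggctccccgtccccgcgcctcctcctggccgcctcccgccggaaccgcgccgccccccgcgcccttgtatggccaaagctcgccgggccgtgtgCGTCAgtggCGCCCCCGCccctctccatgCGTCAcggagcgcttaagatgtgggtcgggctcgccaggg
Dusp1, chr17:26508473-26508722, strand -: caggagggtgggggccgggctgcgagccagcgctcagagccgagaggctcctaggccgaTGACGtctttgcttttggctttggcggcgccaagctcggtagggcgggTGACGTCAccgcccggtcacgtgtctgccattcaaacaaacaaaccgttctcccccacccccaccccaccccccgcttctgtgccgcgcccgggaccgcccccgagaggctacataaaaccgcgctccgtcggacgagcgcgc
Zfp36, chr7:28379229-28379478, strand -: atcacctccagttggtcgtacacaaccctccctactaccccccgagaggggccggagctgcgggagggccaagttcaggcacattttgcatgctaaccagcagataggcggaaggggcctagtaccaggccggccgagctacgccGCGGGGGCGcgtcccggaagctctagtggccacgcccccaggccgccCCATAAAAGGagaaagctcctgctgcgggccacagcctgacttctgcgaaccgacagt

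The short cAMP response element was found in 6 of 8 windows, and in 17.8% of all 32851 windows of this length in the table. The 6 genes were Fos, Fosb, Junb, Atf3, Nr4a1 and Dusp1. The Egr site was found in 3 of 8 (Fosb, Nr4a1 and Zfp36) against 4.70% of all windows. The 8 windows held from 58.4% (Fos) to 74.4% (Nr4a1) G or C. All windows were counted without matching for base content, and its part in these shares was not tested. The full cAMP response element was found in Dusp1 alone of the 8 (1.55% of all windows), the CArG box in Zfp36 alone (1.47%) and the TATA box in Fos alone (12.4%). No window of the 8 held the AP-1 site as TGANTCA, which 6.75% of all windows did, and the window of Jun held none of the motifs searched. It does hold TGACATCA, which matches neither that pattern nor the full cAMP response element. Nr4a1 had 4 short elements and Dusp1 had 3, of which a pair overlap inside its full element. A match says that these letters occur there, and no binding was measured.

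**Figure D1:**
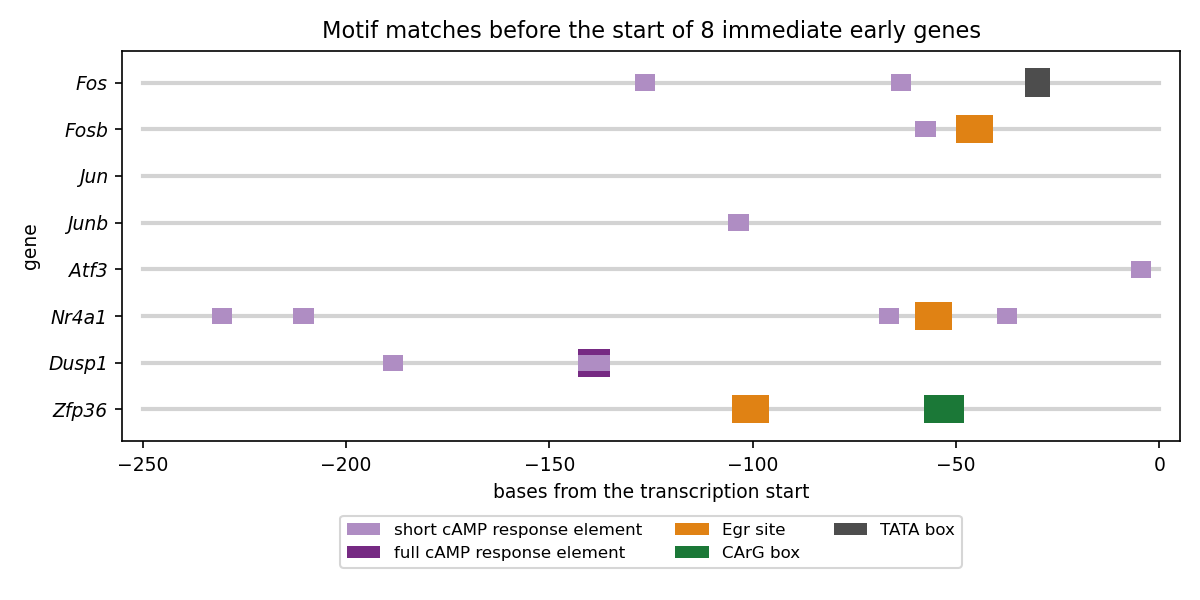
Motif matches in the 250 bases before the start of 8 immediate early genes, drawn to scale as bases from the transcription start. Coloured blocks are matches on either strand; 6 genes hold the short cAMP response element, 3 the Egr site, and Jun holds no match.

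Fos and Fosb encode AP-1 subunits that bind DNA mainly as partners of a Jun protein. Fos was at 8.01, 8.33 and 8.53 on the arrays of MPN mice 1, 2 and 3 and at 8.43 on the control array. The control lay inside the range of the MPN mice, with MPN mouse 3 above it. The log2 difference was -0.14 (SE 0.27, adjusted p = 0.799 in the limma fit over all genes), with a 95% interval of -0.96 to 0.67, and it turned to 0.0736 when the arrays were quantile normalised again. Fosb was at 8.29, 8.84 and 9.01 in the MPN mice against 9.91 in the control. Every MPN array lay below the control, and MPN mouse 1 was the lowest. The mean difference of Fosb was -1.20 (SE 0.37), or 2.30-fold lower, with a 95% interval of -2.29 to -0.11. It did not pass after adjustment over all genes (adjusted p = 0.365), although it was the only one of the 10 whose interval did not hold 0. It stood at percentile 8.24 of the signed differences of all genes and, by size whatever the sign, at percentile 89.3.

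Jun and Junb encode the partners. Jun, the strongest activator of the Jun proteins, was at 9.68, 9.87 and 10.45 in the MPN mice against 10.62 in the control. The groups did not overlap, but MPN mouse 3 came within 0.16 of the control. The difference was -0.62 (SE 0.39, adjusted p = 0.501), within an interval of -1.78 to 0.54. Junb, which can oppose Jun at AP-1 sites, was at 8.01, 7.26 and 7.41 in the MPN mice against 7.09 in the control. All MPN arrays lay above the control, and MPN mouse 1 lay farthest from it. Its difference was 0.47 (SE 0.38, adjusted p = 0.576; interval -0.67 to 1.61). MPN mouse 1 thus had the lowest Fos, Fosb and Jun and the highest Junb of the 3 MPN mice.

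Atf3, a stress-induced factor that pairs with Jun proteins and often represses, was at 8.36, 8.39 and 9.57 in the MPN mice against 8.12 in the control. MPN mice 1 and 2 lay near the control, and MPN mouse 3 stood 1.45 above it. The mean difference was 0.65 (SE 0.63, adjusted p = 0.625; interval -1.22 to 2.53).

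Nr4a1, an orphan nuclear receptor that acts without a known natural ligand, had the largest difference of the 10 genes. It was at 7.19, 7.57 and 9.16 in the MPN mice against 6.53 in the control. All MPN arrays lay above the control, by 0.66, 1.04 and 2.64, and MPN mouse 3 again stood apart. The mean difference was 1.45 (SE 0.94), or 2.73-fold, at percentile 98.3 of the signed differences of all genes and 92.0 by size. It did not pass (adjusted p = 0.510), and the interval ran from -1.36 to 4.26. Within the MPN group its values spanned 1.98, a 3.93-fold range between mice.

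Egr1, a zinc finger factor of the growth factor response, was at 8.22, 7.82 and 7.95 in the MPN mice against 8.49 in the control. All MPN arrays lay below the control, and the 3 mice lay within 0.40 of each other. The difference was -0.50 (SE 0.23, adjusted p = 0.447; interval -1.19 to 0.19), and it did not pass.

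**Figure D2:**
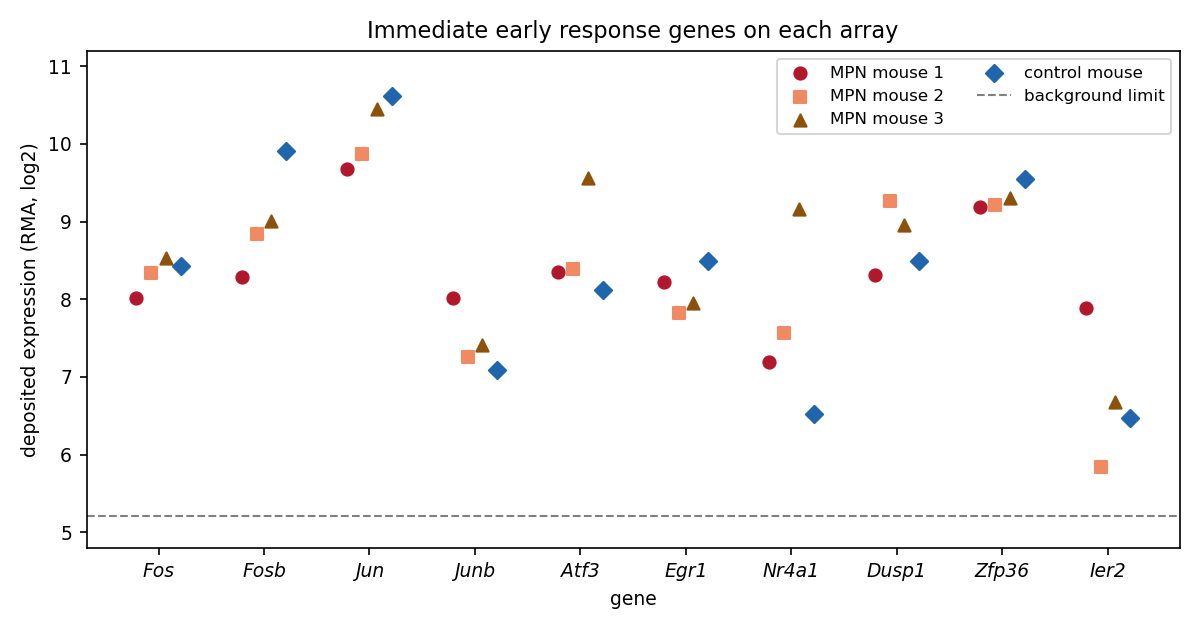
Deposited log2 expression (RMA) of the 10 genes on each of the 4 arrays, with MPN mice 1 to 3 in warm colours, the control mouse as a blue diamond and the background limit of 5.21 as a dashed line. All values lie above the limit, from 5.84 for Ier2 in MPN mouse 2 to 10.62 for Jun in the control.

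The remaining genes encode feedback proteins and Ier2. Dusp1, a phosphatase that inactivates the p38 and JNK kinases, was at 8.31, 9.26 and 8.96 in the MPN mice against 8.50 in the control. MPN mouse 1 lay below the control and the other 2 above it. The difference was 0.34 (SE 0.45, adjusted p = 0.711; interval -1.01 to 1.70). Zfp36, or tristetraprolin, which binds AU-rich elements and speeds mRNA decay, was at 9.18, 9.21 and 9.30 in the MPN mice against 9.55 in the control. The MPN mice lay within 0.12 of each other and all below the control. The SD of 0.06 over the MPN mice stood at percentile 7.44 of all genes, and the difference was -0.32 (SE 0.15, adjusted p = 0.451; interval -0.78 to 0.14). Ier2, a small nuclear protein of the serum response, was at 7.89, 5.84 and 6.68 in the MPN mice against 6.47 in the control. Its MPN mice lay on both sides of the control and spanned 2.05, a 4.15-fold range. The difference of 0.33 (SE 0.93, adjusted p = 0.861) had an interval of -2.43 to 3.10, and it became -0.21 without MPN mouse 1.

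**Figure D3:**
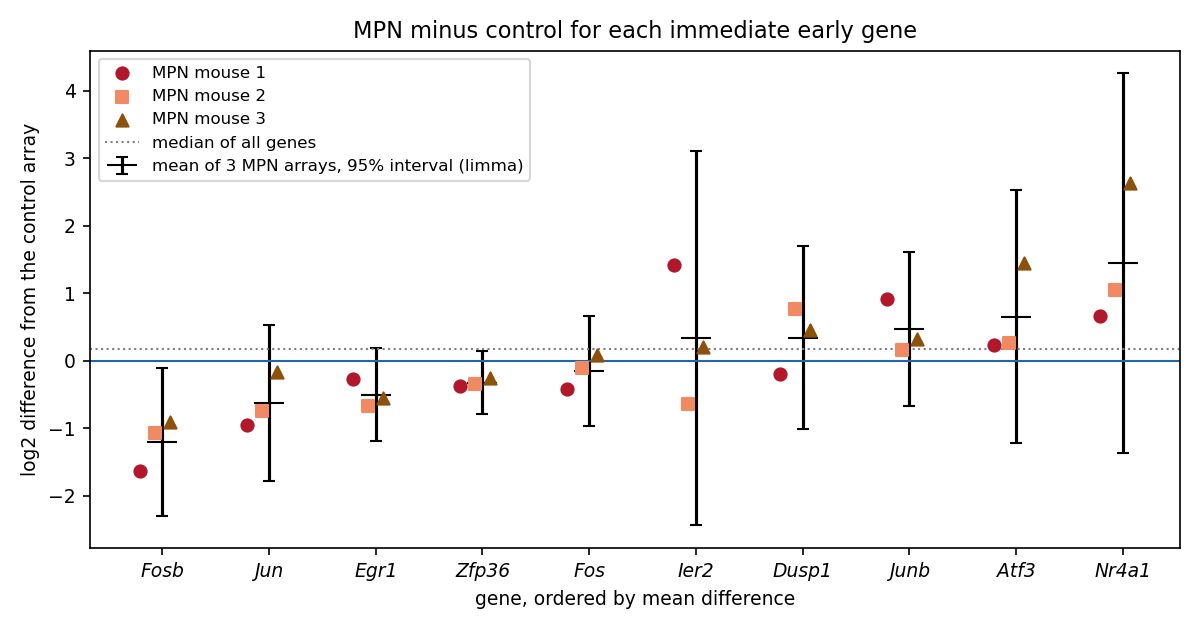
Log2 difference from the control array for each MPN mouse (coloured points), with the mean of the 3 arrays and its 95% interval from limma (black), ordered from Fosb (-1.20) to Nr4a1 (1.45). The blue line marks the control and the dotted line the median of all genes at 0.18; 9 of the 10 intervals hold 0.

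Across the 10 genes there was no common direction. In limma, 0 of 10 passed at an adjusted p of 0.05, where 0% of all genes passed, and adjusted p ran from 0.365 to 0.861. At an unadjusted p under 0.05 the count was 1 of 10 (Fosb, lower), against 12.6% of all genes. All 3 MPN arrays lay above the control for 3 genes (Junb, Atf3 and Nr4a1), where 46.8% of all genes did so. They lay below it for 4 genes (Fosb, Jun, Egr1 and Zfp36), where 21.1% of all genes did so. Among the 11964 genes above the background limit in either group, which include all 10, 4413 lay above the control on each MPN array and 3576 below. With the receptor genes at equal medians, Nr4a1 alone of the 10 lay above the control on all MPN arrays and Fos joined the 4 below it. In Fos, Dusp1 and Ier2 the MPN arrays lay on both sides of the control.

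By size, 0 of 10 genes were at least 2-fold higher on each MPN array, where 1.13% of all genes were, and 0 of 10 were at least 2-fold lower on each, where 5.78% were. Without MPN mouse 1 the count higher was 1 (Nr4a1), where 378 of all 19938 genes were. Without MPN mouse 3 the count lower was 1 (Fosb), where 1756 of all 19938 genes were. The median difference over the 10 genes was 0.10, beside 0.18 over all genes and 0.08 over those above the background limit in either group. Leaving out any single MPN mouse turned the sign of the median over the 10 genes (-0.106 to -0.0032). The median size of a difference, whatever its sign, was 0.48 over the 10 genes and 0.37 over all genes, and 0.48 over the 11964 genes above the background limit in either group. The intervals are wide: in 8 of 10 genes they reach past a 2-fold change in at least 1 direction, so a change of that size lies within them. The control's own spread is unknown, since it had 1 array.

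In 7 of the 10 genes the range over the MPN mice exceeded the size of the mean difference, a share near that of all genes (60.5%). The SD over the MPN mice was above the median of all genes for 8 of the 10, with Nr4a1 at percentile 93.2 and Ier2 at 93.0. That median was 0.23, and it was 0.29 over the 11964 genes above the background limit in either group. Fos, with an SD of 0.26, lay above the former and below the latter. The genes did not mark 1 mouse throughout. MPN mouse 3 held the highest value of Fos, Atf3 and Nr4a1, MPN mouse 1 that of Junb and Ier2, and MPN mouse 2 that of Dusp1. The control held the highest value of Fosb, Jun, Egr1 and Zfp36, and the lowest of Junb, Atf3 and Nr4a1. MPN mouse 1 held the lowest value of 5 genes, which were Fos, Fosb, Jun, Dusp1 and Zfp36.

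Leukocyte, neutrophil and mesenchymal markers differed more between the same arrays than the 10 genes did. Still, 0 of any marker list passed in limma after adjustment (10 leukocyte, 13 neutrophil and 13 mesenchymal markers had an unadjusted p under 0.05). After cyclic loess Camp and Elane of the neutrophil list passed, after the receptor gene shift Camp did, and after either Kitl, Col1a1, Ebf1 and Ebf3 of the mesenchymal list did. Of 15 leukocyte markers, 10 were at least 2-fold higher on each MPN array, with a median difference of 2.47. Their summed level, as the log2 of the sum of unlogged values, was 13.65 to 14.20 in MPN and 11.50 in the control. Of 15 neutrophil markers, 12 were at least 2-fold higher on each, with a summed level of 14.9 to 15.4 against 13.1. Mmp8, the neutrophil collagenase, was at 10.77, 10.19 and 11.04 in the MPN mice against 5.90 in the control. Of 15 mesenchymal markers, 14 were at least 2-fold lower on each, with a median difference of -3.30 and a summed level of 10.26 to 10.94 against 13.96. Lepr, the leptin receptor of perivascular stromal cells, was at 6.85, 5.81 and 7.17 against 10.80. All markers of these 3 lists lay above the background limit in at least 1 group.

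The summed level of the 10 immediate early genes was 11.80, 11.92 and 12.36 in the MPN mice against 12.27 in the control mouse. That range holds the control, since MPN mouse 3 alone lay above it, whereas the ranges of those 3 marker lists do not. Such a sum gives most weight to bright probe sets, here Jun (10.62) and Fosb (9.91) in the control. Leukocytes and stromal cells both use immediate early genes, and the part of the marker differences in the levels of these genes was not tested. In a bulk sample, fewer cells of a type and less RNA per cell cannot be told apart. Of the other types, 10 measured monocyte and macrophage markers had a median difference of 0.29 and a summed level of 9.56 to 10.6 against 11.3. Of these markers, 2 lay 2-fold or more above the control on each MPN array and 1 as far below it. Ccr2, a receptor of inflammatory monocytes, was at 7.10, 9.96 and 8.46 against 5.02. The others, named after their values were seen, were Fcgr3, higher by 1.58, and Vcam1, which stromal cells also make, at 7.87, 5.97 and 8.15 against 11.06. Vcam1 made up most of the summed level of the list in the control. Adgre1 lay under the background limit on every array, and Csf1r did so by the mean of each group, with 5.84 on the array of MPN mouse 3. The 10 endothelial markers had a median difference of 0.49, with a summed level of 8.42 to 8.67 against 8.06. For 5 measured erythroid markers the median was 0.40 and the summed level 7.48 to 9.11 against 7.51. The highest of these sums, in MPN mouse 2, rested on Car2, named after its values were seen, at 4.29, 8.41 and 4.76 against 4.55.

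**Figure D4:**
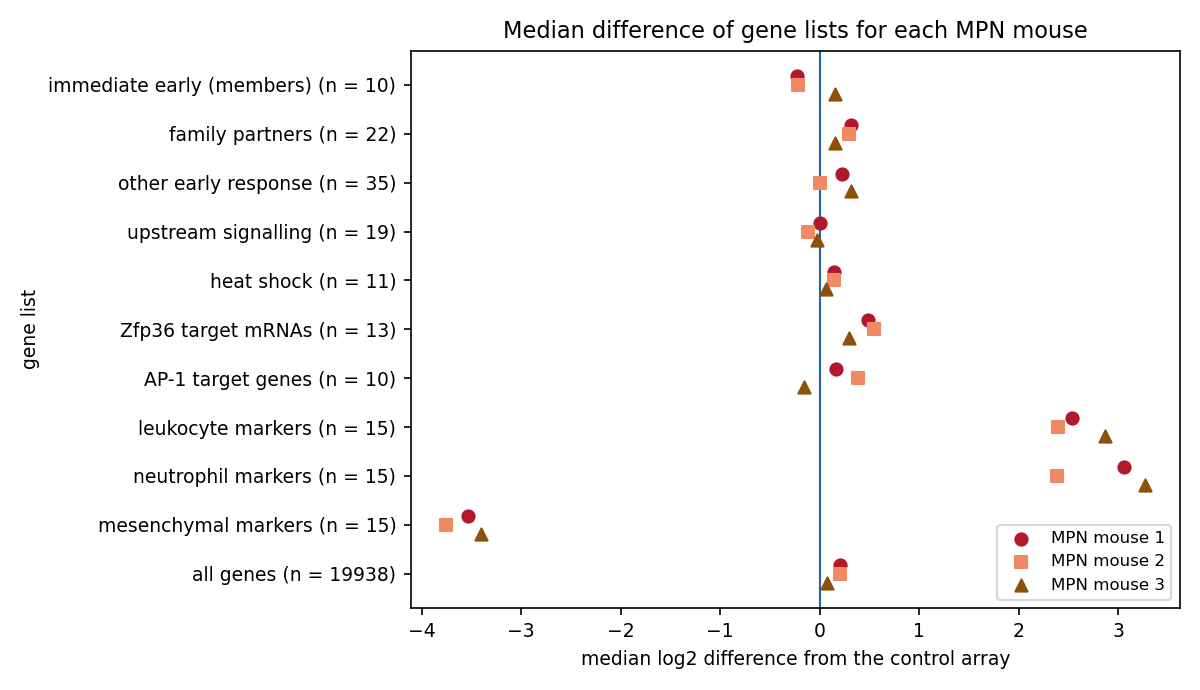
Median log2 difference from the control array for each gene list, with 1 point for each MPN mouse and the number of measured genes in brackets. The immediate early genes lie at -0.23, -0.22 and 0.15 in MPN mice 1, 2 and 3, and all genes at 0.20, 0.21 and 0.08. Leukocyte and neutrophil markers lie above 2 and mesenchymal markers below -3.

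The relatives of the 10 genes were listed as family partners, and 22 of 22 were measured, 19 of them above background in either group. None of the 22 passed in limma after adjustment over all genes; at an unadjusted p under 0.05, 3 were higher and 2 lower. By size, the MPN arrays were each 2-fold or more below the control for 2 of them, Zfp36l1 and Egr2, and for 0 were they as far above it. Their median difference was 0.19, beside 0.18 over all genes. Zfp36l1, a relative of Zfp36 with the same RNA-binding fold, was at 5.81, 4.65 and 5.31 in the MPN mice against 8.38 in the control. It differed by -3.12 (SE 0.54, adjusted p = 0.186), and every MPN array lay at least 2.57 below the control. Zfp36l2, the third gene of that family, was at 6.55, 6.51 and 7.31 against 6.85, with the groups overlapping. Egr2 was at 7.51, 6.29 and 7.72 against 9.42, a difference of -2.24 (SE 0.70, adjusted p = 0.373). Egr3 (0.58) and Egr4 (0.90) lay on the other side, so the listed Egr genes had no common direction. The control value of Egr4, 4.42, lay under the background limit.

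Among the AP-1 partners, Fosl2 was at 7.98, 6.84 and 7.38 in the MPN mice against 5.99 in the control. The groups did not overlap, and the difference was 1.41 (SE 0.53, adjusted p = 0.420). Fosl1 was 0.89 higher (SE 0.40), Batf 0.62 and Batf3 0.45, and each did not pass. In the control, Fosl1 (4.93), Batf (5.18) and Batf3 (4.98) lay under the background limit. Jund, the Jun protein that is often present without a stimulus, read 7.31, 7.24 and 7.24 against 7.24. Jdp2 (0.09) was near 0, and Atf4, the factor of the integrated stress response that can induce Atf3, was at 8.52, 9.50 and 9.03 against 8.39. Fosb was thus lower by mean while Fosl1 and Fosl2, its relatives, were higher, none of them past the test. Of the nuclear receptors, Nr4a2 was at 7.07, 7.24 and 6.99 against 6.06. It was higher on every MPN array, as Nr4a1 was, by 1.04 in the mean (SE 0.19, adjusted p = 0.191), and its 3 MPN values lay close together. Nr4a3 lay under the background limit by the mean of each group, with 5.46 in MPN mouse 1 above it.

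Of the phosphatases related to Dusp1, Dusp6, which inactivates ERK, was at 6.45, 6.06 and 7.14 in the MPN mice against 7.72 in the control. The groups did not overlap, and its difference of -1.17 (SE 0.51) did not pass (adjusted p = 0.439). Dusp5 was 0.35 higher and Dusp2 differed by 0.12. Ier3 was at 7.03, 5.17 and 7.39 against 6.54, and it shared with Ier2 its lowest value in MPN mouse 2. Ier5 (0.19) and Ier5l (0.20) were near the median of all genes. The directions of Jund, Dusp2, Zfp36l2, Ier3, Ier5, Ier5l and Jdp2 turned under at least 1 other scaling of the arrays.

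The upstream list held kinases and factors that switch immediate early genes on, of which 19 of 22 were measured and 18 lay above background. The median difference was 0.01, and 0 passed in limma (3 at an unadjusted p under 0.05, all lower). Srf, the serum response factor, was at 5.85, 5.71 and 5.74 against 5.77, and Elk1, its ternary complex partner, at 7.02, 6.41 and 6.20 against 6.53; both were chosen for their role after their values were seen. At least 2-fold lower on each MPN array were 2 genes, Mef2a with array differences of -1.22, -1.83 and -1.55 and Mef2c at 7.38, 7.28 and 7.64 against 8.81. These MADS-box factors are known activators of Jun and Nr4a1. Their differences were -1.54 (SE 0.31, adjusted p = 0.227) and -1.38 (SE 0.22, adjusted p = 0.173). Mapk9, which encodes JNK2, differed by -1.06 (SE 0.33), and Rps6ka3, an ERK-activated kinase, by -1.54 with a wide error (SE 1.54).

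Of 36 other early response genes, 35 were measured. Their median difference was 0.21, 0 passed in limma, and at an unadjusted p under 0.05 there were 3 higher and 4 lower. By size, 3 lay 2-fold or more below the control on each MPN array and 1 as far above it. The 3 were Ccn1 and Ccn2, secreted matricellular proteins of stromal cells, and Errfi1, an inhibitor of the EGF receptor. Ccn1 was at 7.87, 6.04 and 7.09 in the MPN mice against 9.57 in the control, and Ccn2 at 6.72, 7.05 and 6.85 against 8.86. Neither gene's MPN values reached the control, and Ccn2 differed by -1.99 (SE 0.21, adjusted p = 0.111). Errfi1 was at 8.86, 5.82 and 7.65 against 10.01. Myc was at 4.66, 6.89 and 6.18 against 7.58. The 1 gene higher, named after its values were seen, was Btg2, an antiproliferative gene, at 10.04, 9.69 and 9.64 against 8.34 (1.45, SE 0.24, adjusted p = 0.182).

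Heat shock genes, which tissue dissociation is also known to induce, had a median difference of 0.19 over 11 measured of 13 listed, and 0 passed in limma (0 higher and 2 lower at an unadjusted p under 0.05). Hspa1a, the inducible chaperone, was at 9.02, 9.35 and 8.31 in the MPN mice against 8.01 in the control. All MPN arrays lay above the control, by 0.89 in the mean (SE 0.49, adjusted p = 0.476). Hsph1 was at 8.84, 6.79 and 7.56 against 7.09, with the control inside the range. Bag3, a co-chaperone, was lower on each MPN array (-0.73, SE 0.16, adjusted p = 0.254). Dnajb4 was at 4.24, 5.21 and 6.09 against 8.80, the only gene of the list at least 2-fold lower on each MPN array. With the receptor genes at equal medians, the median difference turned to -0.07 for heat shock genes, -0.04 for the other early response genes, -0.24 for the upstream list and -0.06 for the family partners.

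Known targets of Zfp36 and of AP-1 were listed as well. Of 13 mRNAs known as targets of Zfp36, 9 lay above background in either group, and the median difference over the 13 was 0.37. On each MPN array 4 lay 2-fold or more above the control, and 0 as far below it. Cxcl2, a neutrophil chemokine, was at 10.50, 10.33 and 10.64 against 7.19, and Il1b at 9.99, 9.92 and 11.13 against 7.39. Ccl3, a chemokine of myeloid cells, was at 6.99, 8.89 and 8.73 against 5.58, and the other of the 4 was Tnf, named after its values were seen, at 5.33, 6.97 and 4.95 against 3.82. Ptgs2, the inducible cyclooxygenase, lay above the control by 4.97, 0.88 and 3.32. None passed over all genes in limma (adjusted p = 0.0871 for Cxcl2; 2 higher and 0 lower at an unadjusted p under 0.05). After cyclic loess Cxcl2 did. Myeloid cells make these mRNAs, and the neutrophil markers given above were higher on the same arrays, so their part in these differences was not tested.

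Among 10 measured of 12 AP-1 target genes listed, 3 lay 2-fold or more below the control on each MPN array and 1 as far above it, with a median difference of 0.31. Mmp13, the collagenase of bone, was at 5.08, 6.41 and 10.33 in the MPN mice against 12.23 in the control. Timp1, an inhibitor of such enzymes, was at 5.31, 4.56 and 5.74 against 8.41, and Ccnd1, the cyclin D1 gene, at 5.77, 5.54 and 5.82 against 7.58. These 3 were lower, and the gene that was higher was Plaur, the urokinase receptor of leukocytes, by 2.71, 1.94 and 3.14. None passed in limma (1 higher and 2 lower at an unadjusted p under 0.05). The mesenchymal markers were lower and the leukocyte markers higher on the same arrays, and their part here was not tested either.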

How the data were processed

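Per the series' design text, RNA was amplified with the NuGEN Ovation system and hybridised to Affymetrix MoGene 1.0 ST arrays. The authors deposited log2 values from RMA, per the submitters' processing notes. RMA gives the arrays one distribution of probe intensities before they are summarised by probe set, and it compresses differences near background. The deposited medians over all probe sets still ran from 5.09 (MPN mouse 3) to 5.16 (MPN mouse 2). For its version and probe set definitions, nothing is given in the sources used here. The number of arrays limits the precision.

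Probe sets with 1 gene symbol (21789 of 35556) were used, the brightest by mean where a gene had several. MPN was tested against control with limma 3.58.1 (R 4.3.3; lmFit, then eBayes; two-sided), adjusting by Benjamini-Hochberg over 19938 genes, at a threshold of 0.05. The 2 residual degrees of freedom come from the MPN arrays, so the control is assumed to vary like them, and p-values measure only the spread between these arrays, which may be partly technical. The limma fit was tested on simulated data, and the motif search on a made-up sequence with planted matches. The 10 genes and all lists were chosen with earlier results of these data known.

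Named genes were the 10, family partners above background, up to 4 genes with the largest differences above background from each target, upstream, early response and heat shock list, and up to the first 3 of a marker list. Alternatives left out each MPN mouse, averaged probe sets, kept only genes above background, rescaled the arrays in 4 ways, let the variance prior follow the mean level, used every probe set with 1 symbol, or counted at 1.5-fold.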

Additional observations from a re-analysis of the deposited data

How the results depend on the processing

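The count of genes past the adjusted threshold stayed at 0 of 10 under all 11 alternatives of the fit, while 95 of all genes passed after cyclic loess and 153 after equalising the receptor gene medians (the receptor gene shift). The count at least 2-fold higher was 1 (Nr4a1) after repeated quantile normalisation, where 266 of all 19938 genes were. It was 1 with a 1.5-fold size, and it ran from 0 to 1 when 1 MPN mouse was left out. The count at least 2-fold lower was 1 (Fosb) after repeated quantile normalisation, after cyclic loess and after the receptor gene shift. Of all 19938 genes, 979, 1313 and 1561 were so in these settings. The count lower was also 1 with a 1.5-fold size, and 0 to 1 when 1 MPN mouse was left out. All genes were not counted at 1.5-fold. The median over the 10 genes turned to between -0.106 and -0.0032 when 1 MPN mouse was left out, and it was -0.16 after the receptor gene shift, where Junb and Atf3 no longer lay above the control on every MPN array. Of single genes, Fos turned to 0.0736 after repeated quantile normalisation, and Ier2 ran from -0.21 to 0.82 when 1 MPN mouse was left out. The other 8 genes kept their direction in 11 of 11 alternatives. Fosb ran from -1.46 to -0.99 and Nr4a1 from 0.85 to 1.84. The causes were not tested. No paired analysis was possible because the control group has 1 array, whose label carries no replicate number, so no 2 pairs exist.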
